A study of Mus musculus with 10 samples.

Results

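RNA levels of the transcription factor gene *Trp53* and of 9 genes that p53 is known to activate, *Cdkn1a*, *Mdm2*, *Ccng1*, *Trp53inp1*, *Phlda3*, *Bbc3*, *Bax*, *Sesn2* and *Zmat3*, were described in mouse embryonic stem cells (mESCs) that lack a subunit of the histone deacetylase complex MiDAC. These 10 genes were taken by symbol from a table of 34591 genes, and all 10 were measured in every library. The RNA-seq covered 5 lines with 2 libraries each: wild-type (WT) mESCs, D2A7 and D1E6, which are clones of *Dnttip1* KO mESCs, and E2E8 and E2G7, which are clones of *Elmsan1* KO mESCs. All lines derive from male C57/BL6 Bruce-4 mESCs and were grown without differentiation in 2iL medium, which holds the GSK3β inhibitor CHIR 99021, the MEK inhibitor PD 0325901 and the cytokine LIF. Each KO clone grew from a single sorted cell after CRISPR/Cas9 editing that left frameshift indels, so that each knockout is represented by 2 clones, and whether the WT cells also came from a single cell is not given in the sources used here. DNTTIP1 and ELMSAN1 are scaffolding subunits of MiDAC, whose catalytic subunit is a class I histone deacetylase. The comparisons ask whether the RNA of p53 and its targets depends on these subunits in mESCs.

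p53 binds DNA as a tetramer and activates genes that stop the cell cycle, start apoptosis, repair DNA or change metabolism. Its activity is set to a large part by protein stability: MDM2, itself the product of a p53 target, marks p53 for degradation, and DNA damage or other stress relieves this control. *Trp53* RNA therefore need not follow the RNA of its targets. mESCs hold abundant p53 protein and pass through a short G1 phase.

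The DNA that p53 recognises, the p53 response element, is made of 2 adjoining decamers, each with 3 purines, a C, a pair of bases that are A or T, a G and 3 pyrimidines. It was searched for in NCBIM37, the build of the authors' alignment, from 5000 bases before to 5000 bases after the annotated start of each gene. The C and G of each decamer had to match, and up to 2 of the 16 other positions could differ. The element is its own reverse complement, so each match counts for both strands. At most 1 difference was found in 3 of the 10 genes and in 1.72% of the 22056 windows of protein-coding genes. These matches are printed to show the motif that p53 reads and where it lies beside *Cdkn1a*, *Ccng1* and *Zmat3*. Each is given 5′ to 3′ on the strand of its gene with 5 bases on either side, and capitals mark the element.
*Cdkn1a*, chr17:29227868-29227897, 41 bases before the start, 1 difference: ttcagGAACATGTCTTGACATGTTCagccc
*Ccng1*, chr11:40568959-40568988, 160 bases before the start, 1 difference: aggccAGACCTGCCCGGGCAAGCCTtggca
*Ccng1*, chr11:40568433-40568462, 366 bases after the start in an intron, 1 difference: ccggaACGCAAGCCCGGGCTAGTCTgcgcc
*Zmat3*, chr3:32269068-32269097, 4482 bases before the start, 1 difference: ttggaGAGCAAGTCTGGGCTTGTTAgttta
*Zmat3*, chr3:32263248-32263277, 1338 bases after the start in an intron, 0 differences: gtgagAAACAAGCCCAGGCATGTCTtggga

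The intronic *Zmat3* match, without any difference, was of a kind found in 0.177% of windows. With up to 2 differences, *Bax* also held a match, 315 bases after its start in an untranslated exon, as did 9.83% of windows. The letters searched were not found in the windows of the other 6 genes. A match describes the sequence and is no evidence of p53 binding, which was not measured.

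Levels are given as normalised FPKM, that is, FPKM (fragments per length of exon, scaled to library size) divided by a factor of 0.965 to 1.01 per library. Log2 fold changes are differences of log2(normalised FPKM + 0.1), and all p-values are from limma, two-sided, with Benjamini-Hochberg adjustment over all genes tested. The libraries held 31098269 to 86463773 fragments, fewest in WT, and 478 to 32876 fragments lay behind each value of the 10 genes. *Dnttip1* RNA was at 8.45 and 8.35 in WT and at 2.58 to 4.57 in *Dnttip1* KO libraries (log2 fold change -1.26, adjusted p = 0.0471), whereas *Elmsan1* RNA, listed under its older name *C130039O16Rik*, was at 5.73 and 5.34 in WT and at 4.62 to 5.13 in *Elmsan1* KO libraries (-0.19, adjusted p = 0.188). Frameshift indels need not lower RNA, so the *Elmsan1* level does not check the labels. The summed level of 6 embryonic stem cell markers, including *Pou5f1*, *Sox2* and *Nanog*, was 1051 to 1098 in WT, 1011 to 1019 in D2A7, 947 to 957 in D1E6, 857 to 861 in E2E8 and 944 to 949 in E2G7. These markers did not move alike, and *Zfp42* was higher in every KO library (82.5 to 108) than in WT (67.4 and 69.3). *Sox2*, *Nanog* and *Klf4* were lower in every KO library than in WT, such as *Sox2* at 132 and 137 in E2E8, 138 and 137 in E2G7, and 194 and 179 in WT. *Pou5f1* was lower than in WT in D1E6, E2E8 and E2G7, whereas D2A7 (318 and 309) overlapped WT (321 and 294). In E2E8, *Esrrb* (96.6 and 100) was close to WT (105 and 100). The summed level of 6 fibroblast markers was at most 0.144 in any library and that of 5 primitive endoderm markers at most 1.34. That of 5 neural markers, almost all of it *Tubb3*, was 55.3 to 62.0 in WT, 45.6 to 47.7 in E2E8 and 71.9 to 88.5 in the other clones. The most abundant gene took 7.38% to 8.12% of the summed FPKM in WT, 8.58% to 8.74% in E2E8 and 3.94% to 5.27% in the other clones.

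The clearest pattern was that of a single *Elmsan1* KO clone. E2E8 had the highest RNA of *Cdkn1a*, *Mdm2*, *Ccng1*, *Trp53inp1*, *Phlda3*, *Bbc3*, *Sesn2* and *Zmat3* of all 5 lines, in both of its libraries, and the lowest *Trp53*. In the other *Elmsan1* KO clone, E2G7, *Cdkn1a*, *Phlda3* and *Sesn2* were higher than in WT by smaller amounts, *Ccng1* was lower, and no other gene of the 10 passed the test. *Ccng1* was lower in both *Dnttip1* KO clones as well, and D2A7 had the lowest *Zmat3*. None of these changes reached 2-fold, and in bulk RNA, fewer cells with an RNA and less of it per cell cannot be told apart.

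**Figure D1:**
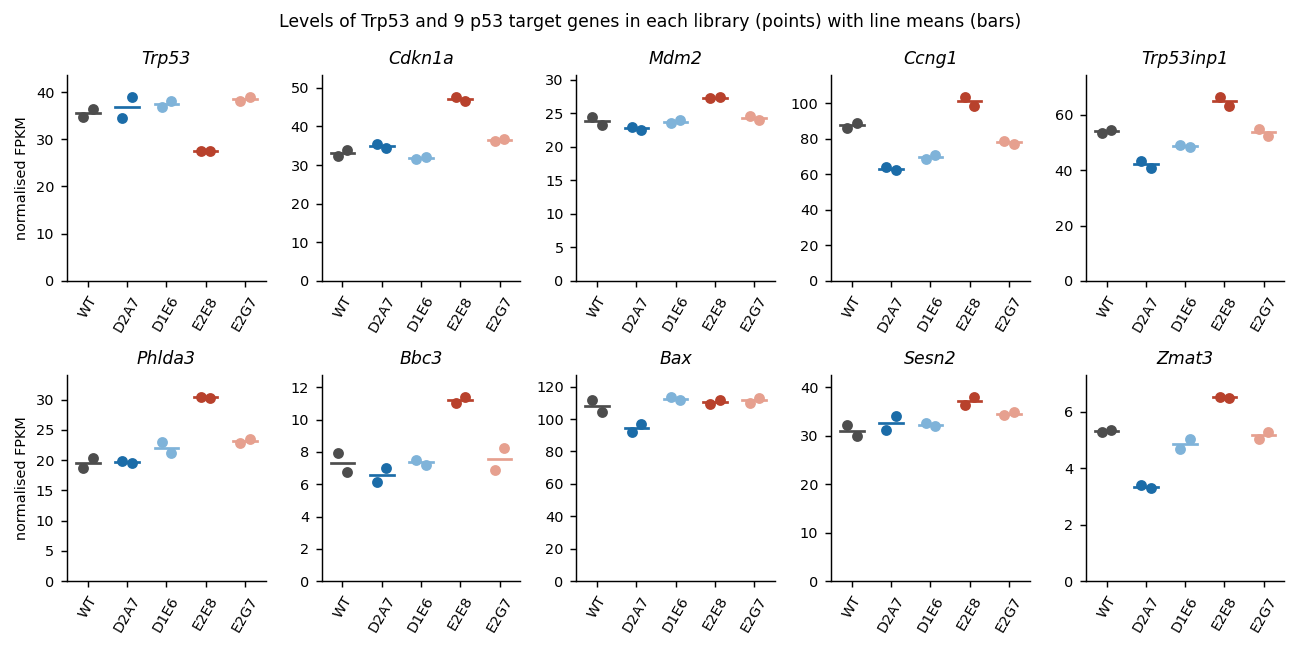
Levels of the 10 genes in each of the 10 libraries (points, normalised FPKM on linear axes that start at 0), with the mean of the 2 libraries of each line as a bar. Both E2E8 libraries lie above all other libraries in 8 panels and below all others in the *Trp53* panel, and both D2A7 libraries lie lowest for *Mdm2*, *Ccng1*, *Trp53inp1*, *Bax* and *Zmat3*.

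*Trp53* (ENSMUSG00000059552, chr11:69393861-69405375, + strand) encodes p53 itself. Its level was 34.7 and 36.3 in WT, 34.5 and 39.0 in D2A7, 36.7 and 38.0 in D1E6, 27.4 and 27.6 in E2E8, and 38.0 and 39.0 in E2G7. Both E2E8 libraries lay below all 8 others. D2A7 overlapped WT and D1E6, and D1E6 and E2G7 lay just above WT. The log2 fold change from WT was -0.37 in E2E8 (standard error 0.0547, adjusted p = 0.000867) and 0.12 in E2G7 (adjusted p = 0.125). It was 0.05 in D2A7 (adjusted p = 0.498) and 0.07 in D1E6 (adjusted p = 0.314), with an interval for the latter of -0.05 to 0.20. The pseudogene *Trp53-ps*, a feature of 141 bases, is listed at 0 in all 10 libraries.

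*Mdm2* (ENSMUSG00000020184, chr10:117125944-117147814, - strand) encodes the ubiquitin ligase that closes the feedback loop on p53. It was at 24.4 and 23.3 in WT, 23.0 and 22.5 in D2A7, 23.5 and 23.9 in D1E6, 27.2 and 27.5 in E2E8, and 24.7 and 24.0 in E2G7. D1E6 and E2G7 overlapped WT, D2A7 lay just below it, and E2E8 lay above every other line. The rise in E2E8 was 0.20 on the log2 scale (standard error 0.0318, adjusted p = 0.00126). The 95% interval of the change was -0.14 to 0.01 in D2A7, -0.08 to 0.07 in D1E6 and -0.05 to 0.10 in E2G7.

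*Ccng1* (ENSMUSG00000020326, chr11:40562054-40568813, - strand) encodes cyclin G1, which recruits a phosphatase to MDM2 and so also acts on p53. Its level was 86.2 and 88.8 in WT, 64.2 and 62.1 in D2A7, 68.7 and 70.9 in D1E6, 104 and 98.5 in E2E8, and 78.8 and 76.9 in E2G7. No line overlapped another, in the order D2A7, D1E6, E2G7, WT and E2E8 from low to high. *Ccng1* RNA fell in D2A7 (log2 fold change -0.47, adjusted p = 3.14e-05), D1E6 (-0.33, adjusted p = 0.000253) and E2G7 (-0.17, adjusted p = 0.00686) and rose in E2E8 (0.21, adjusted p = 0.00171). With the clones of a knockout pooled, it was lower in *Dnttip1* KO than in WT mESCs (66.5 ± 4.04, SD, n = 4, against 87.5 ± 1.84, SD, n = 2), which is -0.40 on the log2 scale (standard error 0.0659, adjusted p = 0.0211). That adjusted p was 0.152 without WT replicate 1, 0.160 without WT replicate 2 and 0.137 in a fit that allowed for correlation within clones.

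*Cdkn1a* (ENSMUSG00000023067, chr17:29227924-29237667, + strand) encodes p21, the inhibitor of cyclin-dependent kinases through which p53 arrests the cell cycle. It was at 32.5 and 33.9 in WT, 35.4 and 34.3 in D2A7, 31.5 and 32.2 in D1E6, 47.7 and 46.7 in E2E8, and 36.3 and 36.7 in E2G7. The lines did not overlap, and E2E8 lay far above the others. *Cdkn1a* RNA rose in E2E8 by 0.51 on the log2 scale (1.42-fold, standard error 0.0308, adjusted p = 1.06e-05) and in E2G7 by 0.14 (1.10-fold, adjusted p = 0.00878). The *Dnttip1* KO clones lay on either side of WT, with log2 fold changes of 0.07 in D2A7 (adjusted p = 0.0866) and -0.06 in D1E6 (adjusted p = 0.163). The element printed above for this gene lies just before its outermost annotated start. The gene has 3 annotated transcripts, and the distance of the element from the start of each was not determined. Pooled over clones, the log2 fold change was 0.01 in *Dnttip1* KO (interval -0.15 to 0.16) and 0.32 in *Elmsan1* KO mESCs (interval -0.0013 to 0.65, adjusted p = 0.181).

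Of the genes that act in cell death, *Bbc3* (ENSMUSG00000002083, chr7:16894965-16903554, + strand) encodes PUMA, which frees BAX by binding BCL-2 proteins. Its level, the second lowest of the 10 genes, was 7.93 and 6.75 in WT, 6.13 and 7.02 in D2A7, 7.50 and 7.21 in D1E6, 11.0 and 11.4 in E2E8, and 6.87 and 8.22 in E2G7. E2E8 lay above all other libraries, and the remaining 4 lines overlapped. The log2 fold change in E2E8 was 0.61 (1.52-fold, standard error 0.107, adjusted p = 0.00200), and in E2G7 0.04 (interval -0.21 to 0.29). *Bax* (ENSMUSG00000003873, chr7:52717065-52722268, - strand) encodes the protein that opens the outer mitochondrial membrane and was the most abundant of the 10 transcripts per exon length. It was at 112 and 104 in WT, 91.8 and 96.8 in D2A7, 114 and 112 in D1E6, 109 and 112 in E2E8, and 109.9 and 113 in E2G7. D2A7 was lower than every other line (log2 fold change from WT -0.20, standard error 0.0414, adjusted p = 0.00530), and the other lines overlapped WT or their neighbour. *Bax* was the only target of which E2E8 did not hold the highest level, with a log2 fold change from WT of 0.03 (interval -0.06 to 0.13).

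*Phlda3* (ENSMUSG00000041801, chr1:137662696-137665713, + strand), whose product restrains the survival kinase AKT, was at 18.7 and 20.4 in WT and 19.9 and 19.5 in D2A7. It was at 23.0 and 21.1 in D1E6, 30.4 and 30.3 in E2E8, and 22.9 and 23.4 in E2G7. D2A7 lay within WT, D1E6 and E2G7 lay just above it and overlapped each other, and E2E8 lay well above both. *Phlda3* RNA rose in E2E8 (log2 fold change 0.64, 1.55-fold, adjusted p = 3.93e-05), in E2G7 (0.24, adjusted p = 0.00650) and in D1E6 (0.17, adjusted p = 0.0269), and in D2A7 the log2 fold change was 0.01 (adjusted p = 0.825). The call in D1E6 was lost without WT replicate 1 (adjusted p = 0.135) and without D1E6 replicate 1 (adjusted p = 0.155). *Trp53inp1* (ENSMUSG00000028211, chr4:11083578-11101526, + strand) encodes a stress protein that promotes p53 phosphorylation and autophagy. It was at 53.5 and 54.7 in WT, 43.5 and 40.8 in D2A7, 49.3 and 48.5 in D1E6, 66.6 and 63.1 in E2E8, and 55.1 and 52.4 in E2G7. Both *Dnttip1* KO clones lay below WT, E2G7 overlapped WT and E2E8 lay above it. *Trp53inp1* RNA fell in D2A7 (log2 fold change -0.36, adjusted p = 0.000311) and D1E6 (-0.15, adjusted p = 0.0273) and rose in E2E8 (0.26, adjusted p = 0.00139). The D1E6 call was lost without any 1 of the 4 WT and D1E6 libraries (adjusted p from 0.0562 to 0.113).

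*Sesn2* (ENSMUSG00000028893, chr4:132047947-132066416, - strand) encodes sestrin 2, a stress protein that senses leucine and restrains mTORC1. Its level was 32.2 and 30.0 in WT, 31.3 and 34.0 in D2A7, 32.6 and 31.9 in D1E6, 36.4 and 38.0 in E2E8, and 34.2 and 35.0 in E2G7. All 4 *Elmsan1* KO libraries lay above both WT libraries, and both *Dnttip1* KO clones overlapped WT. The log2 fold change was 0.26 in E2E8 (standard error 0.0498, adjusted p = 0.00316) and 0.15 in E2G7 (adjusted p = 0.0400), the latter lost without WT replicate 2 (adjusted p = 0.183), without E2G7 replicate 1 (0.0928) and without E2G7 replicate 2 (0.162). *Gm12981*, which is annotated on the same strand and overlaps *Sesn2*, may share reads with it, and the other 9 genes overlap no annotated gene. *Zmat3* (ENSMUSG00000027663, chr3:32233718-32264600, - strand) encodes a zinc finger protein that binds RNA and was the least abundant of the 10. It was at 5.29 and 5.36 in WT, 3.39 and 3.31 in D2A7, 4.70 and 5.05 in D1E6, 6.53 and 6.50 in E2E8, and 5.05 and 5.30 in E2G7. D2A7 lay below all other libraries and E2E8 above them, whereas D1E6 overlapped E2G7 and E2G7 overlapped WT. *Zmat3* RNA fell in D2A7 by 0.65 on the log2 scale (a level 0.636 times that of WT, standard error 0.0481, adjusted p = 2.83e-05) and rose in E2E8 (0.29, 1.22-fold, adjusted p = 0.00157). The spread of its line means, 1.94-fold between D2A7 and E2E8, was the widest of the 10 genes, against 1.20-fold for *Mdm2*, *Bax* and *Sesn2*.

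With both clones of a knockout pooled, no gene of the 10 was called by the rule of the study's methods, which asks for a change of 1.5-fold or more with an unadjusted p under 0.01. In *Dnttip1* KO against WT mESCs, limma called 0 of 10, as did voom on fragments recovered from the FPKM, whereas 6.5% of the 17435 genes tested were called. An unadjusted p under 0.05 was reached by 2 of the 10, *Ccng1* and *Trp53inp1*, and by 27.3% of all genes. When any fold with an adjusted p under 0.05 was called, *Ccng1* was lower and none was higher, beside 4.28% of genes lower and 5.18% higher. The 9 targets had a median log2 fold change of -0.07, with 6 below and 3 above 0, and all genes tested a median of 0.02. This fit counts the 4 KO libraries as independent, although those of a clone resembled each other (estimated correlation 0.704). With that correlation, 1 of 10, *Ccng1*, kept an unadjusted p under 0.05, beside 12.4% of all genes, and *Trp53inp1* had an unadjusted p of 0.0613.

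In *Elmsan1* KO against WT mESCs, limma and voom again called 0 of 10, beside 6.42% of 17205 genes tested. No gene of the 10 had an adjusted p under 0.05 by either tool, beside 10.5% of all genes, and 2 of the 10, *Phlda3* and *Sesn2*, had an unadjusted p under 0.05, beside 27.8%. *Phlda3* was at 26.8 ± 4.18 (SD, n = 4) against 19.5 ± 1.20 (SD, n = 2) in WT, or 0.44 on the log2 scale (standard error 0.144, adjusted p = 0.108), and *Sesn2* differed by 0.21 (standard error 0.0620, adjusted p = 0.0876). With an estimated correlation within clones of 0.768, 1 of 10, *Phlda3*, kept an unadjusted p under 0.05, beside 12.3% of all genes, and *Sesn2* had an unadjusted p of 0.111. All 9 targets had positive values, with a median of 0.13 beside 0.00 for all genes. The clones contributed unequally to this median, which was 0.26 in E2E8 and 0.04 in E2G7.

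**Figure D2:**
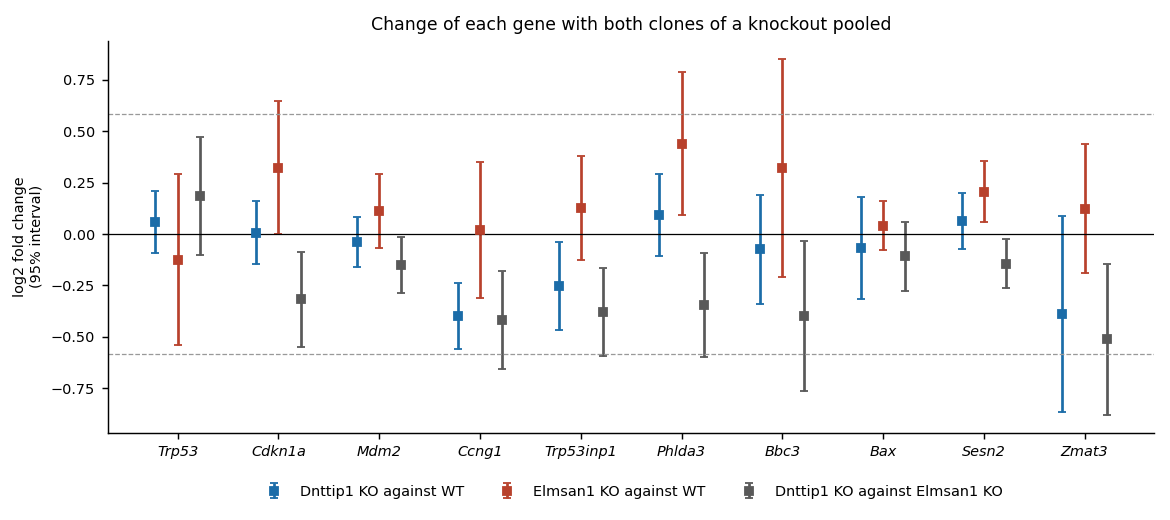
Log2 fold change of each gene with both clones of a knockout pooled, for *Dnttip1* KO against WT, *Elmsan1* KO against WT and *Dnttip1* KO against *Elmsan1* KO, with 95% intervals from limma. The fit counts the libraries of a clone as independent, so the intervals hold the spread between clones only in part. Dashed lines mark 1.5-fold. For *Dnttip1* KO the interval leaves out 0 at *Ccng1* and *Trp53inp1*, and for *Elmsan1* KO it does so at *Phlda3* and *Sesn2*. With correlation within clones in the fit, the intervals of *Trp53inp1* and *Sesn2* hold 0.

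The knockouts were also compared with each other, 4 libraries against 4. *Dnttip1* KO mESCs had lower values of all 9 targets than *Elmsan1* KO mESCs, with a median log2 difference of -0.35 beside 0.01 over all genes, but 0 of 10 was called by limma or voom, beside 1.52% of the 17600 genes tested. No gene of the 10 passed an adjusted p of 0.05 with either tool, and neither did almost any gene (0.0341%). At an unadjusted p under 0.05, 8 of the 10 passed, beside 15.8% of all genes, and their adjusted p ranged from 0.296 to 0.304. With an estimated correlation within clones of 0.856, 5 of the 10 kept an unadjusted p under 0.05, beside 4.12% of all genes, and *Bbc3* (unadjusted p = 0.152), *Mdm2* (0.114) and *Sesn2* (0.223) did not. The differences were -0.51 for *Zmat3* (interval -0.88 to -0.14), -0.42 for *Ccng1*, -0.40 for *Bbc3*, -0.38 for *Trp53inp1*, -0.35 for *Phlda3*, -0.32 for *Cdkn1a*, -0.15 for *Mdm2* and -0.14 for *Sesn2*. As targets of the same factor, these genes do not count as independent observations. The clones contributed unequally, since *Zmat3* had means of 3.35 in D2A7 and 6.52 in E2E8, but of 4.88 in D1E6 and 5.17 in E2G7. For *Bbc3* the means were 6.57 and 11.2 in the first pair, and 7.36 and 7.55 in the second. Between D1E6 and E2G7, *Bax* was higher in D1E6 (113 and 111) and the other targets were lower, such as *Ccng1* (69.8 and 77.9). Without D1E6 replicate 2, *Zmat3* passed the rule of the study, with a log2 difference of -0.62.

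Each clone was next set against WT in a fit over all 10 libraries, whose spread is that between libraries of a line and not that between clones. Many genes pass such a test, and the counts are to be read against their share. In E2E8, 8 of the 10 genes were higher and 1, *Trp53*, was lower at an adjusted p under 0.05, beside 29.3% of the 16893 genes tested that were higher and 25.9% that were lower. The 9 targets ranged from 0.03 (*Bax*) to 0.64 (*Phlda3*) around a median log2 fold change of 0.26, and the median of all genes was 0.03. *Phlda3* and *Bbc3* passed the rule of the study, 2 of 10 beside 17% of all genes, and both lay close to its 1.5-fold limit. *Phlda3* fell under it without WT replicate 1 (log2 fold change 0.57), and *Bbc3* did so without WT replicate 2 (0.49) or E2E8 replicate 2 (0.58). The 9 calls at an adjusted p under 0.05 numbered 9 in every alternative setting and with each library left out. E2E8 was also the line with the lowest summed levels of stem cell and neural markers and the clone whose share of the most abundant gene was nearest to WT, and their part in these values was not tested.

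In E2G7, *Cdkn1a*, *Phlda3* and *Sesn2* were higher and *Ccng1* was lower at an adjusted p under 0.05, 3 of 10 beside 19.9% of 16595 genes and 1 of 10 beside 22% of genes. The median of the 9 targets was 0.04, and that of all genes was -0.02. Without E2G7 replicate 2, *Cdkn1a* (adjusted p = 0.0543) and *Sesn2* lost their calls. By the rule of the study, 0 of 10 passed in limma and in voom, beside 10.7% of all genes, and 4 of 10 had an unadjusted p under 0.05, beside 50.1%.

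In D2A7, 4 of the 10 genes, *Bax*, *Ccng1*, *Trp53inp1* and *Zmat3*, were lower at an adjusted p under 0.05 and 0 were higher, in limma and in voom, beside 23.5% of 17097 genes lower and 28.6% higher. At an unadjusted p under 0.05, 0 were higher as well. Calls were gained by *Trp53* without D2A7 replicate 1 (0.14, adjusted p = 0.0329) and, without WT replicate 2, by *Cdkn1a* (0.10, adjusted p = 0.0432) and *Mdm2* (-0.10, adjusted p = 0.0439). The median of the 9 targets was -0.16, beside 0.04 for all genes. *Zmat3* alone passed the rule of the study, 1 of 10 beside 17.1% of genes. In D1E6, *Phlda3* was higher and *Ccng1* and *Trp53inp1* were lower, 1 of 10 beside 21.4% of 16688 genes and 2 of 10 beside 22.5%. These 3 calls became 1 without WT replicate 1 or D1E6 replicate 1, and without D1E6 replicate 2 *Zmat3* gained one (-0.18, adjusted p = 0.0453). By the rule of the study, 0 of 10 passed in D1E6 in limma and in voom, beside 11.7%, and 4 of 10 had an unadjusted p under 0.05, beside 51.6%. The median of the 9 targets in D1E6 was -0.01, against 0.00 for all genes.

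**Figure D3:**
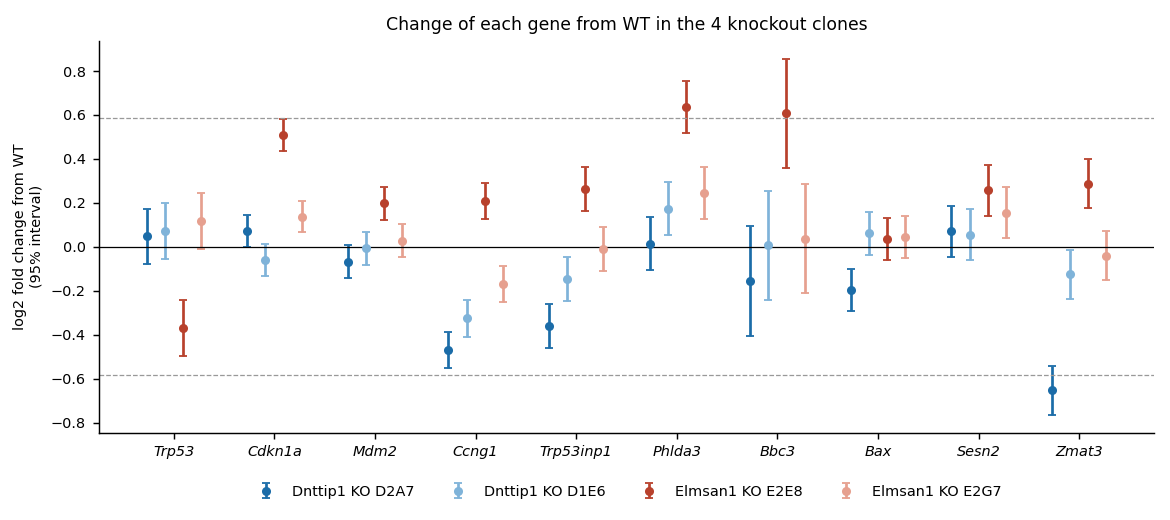
Log2 fold change from WT of each gene in the 4 KO clones, with 95% intervals from the fit over all 10 libraries, which hold the spread between libraries of a line only. Dashed lines mark 1.5-fold. E2E8 lies above the other clones for 8 genes and below them for *Trp53*, and D2A7 lies lowest for *Zmat3*, at -0.65.

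The clones of a knockout were then compared directly. E2E8 exceeded E2G7 in 7 of the 10 genes and was lower in 1 at an adjusted p under 0.05, beside 29% of 16727 genes that were higher and 21.7% that were lower. The log2 difference was 0.57 for *Bbc3* (adjusted p = 0.00321), 0.39 for *Phlda3* (0.000560), 0.38 for *Ccng1* (0.000124), 0.37 for *Cdkn1a* (7.03e-05), 0.33 for *Zmat3* (0.000973), 0.27 for *Trp53inp1* (0.00142), 0.17 for *Mdm2* (0.00324) and -0.48 for *Trp53* (0.000285). *Sesn2* differed by 0.10 (interval -0.01 to 0.22) and *Bax* by -0.01 (interval -0.11 to 0.09). With voom, *Sesn2* gained a call at an adjusted p under 0.05 (adjusted p = 0.0406). By the rule of the study, 0 of 10 passed in limma and in voom, beside 13.2% of genes, although 8 of 10 had an unadjusted p under 0.05, beside 56.7%. *Bbc3* passed the rule without E2G7 replicate 2 (0.70) and without E2E8 replicate 1 (0.60). The median of the 9 targets was 0.33, beside 0.05 for all genes.

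D2A7 was lower than D1E6 in 5 of the 10 genes and higher in 1 at an adjusted p under 0.05, beside 20% of 16996 genes lower and 26% higher. The log2 difference was -0.53 for *Zmat3* (adjusted p = 8.59e-05), -0.26 for *Bax* (0.00161), -0.21 for *Trp53inp1* (0.00486), -0.16 for *Phlda3* (0.0358), -0.14 for *Ccng1* (0.0121) and 0.13 for *Cdkn1a* (0.0104). That of *Cdkn1a* lost its call without D2A7 replicate 1 (adjusted p = 0.0641) or D1E6 replicate 1 (0.0632), and that of *Ccng1* without D2A7 replicate 2 (0.0716) or D1E6 replicate 2 (0.0745). That of *Phlda3* lost its call without D2A7 replicate 1 (0.0858), D2A7 replicate 2 (0.132) or D1E6 replicate 1 (0.202). By the rule of the study, 0 of 10 passed in limma and in voom, beside 13.8% of genes, and 6 of 10 had an unadjusted p under 0.05, beside 53%. For the other genes with mean FPKM of 1 or more on the chromosomes of the 10, the median log2 fold changes lay between -0.06 and 0.05 in all of these comparisons. A shift of part of a chromosome was not tested.

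A further 76 genes of the p53 pathway were placed in 6 lists: the p53 family and upstream regulators, targets in cell cycle arrest, apoptosis, metabolism and antioxidant defence, and DNA repair, and genes that p53 represses through p21 and the DREAM complex. All 76 were in the table and 73 were tested against WT. The rule of the study called 4 of them in *Dnttip1* KO mESCs, 2 higher and 2 lower, and 2 in *Elmsan1* KO mESCs, 1 higher and 1 lower, where 6.5% and 6.42% of all genes tested were called, so neither count exceeds the share over all genes. With correlation within clones in the fit, 2 and 1 of the 73 were called, beside 538 of 17435 and 486 of 17205 genes tested. The 4 were *Gdf15*, *Trp73*, *Perp* and *Trp53inp2*, and the 2 were *Btg2* and *Rrm2b*. *Trp73*, a paralog of *Trp53*, had levels of 0.495 to 1.03 and is named here after its values were seen. In E2E8 against WT, 7 of the 12 arrest genes were higher and 0 lower at an adjusted p under 0.05, where 29.3% and 25.9% of all genes were, with a median log2 fold change of 0.34. Of the 13 tested apoptosis genes, 8 were higher and 1 lower (median 0.34), and of the 10 repair genes, 6 were higher and 2 lower (median 0.23). The 11 metabolism genes (4 higher, 4 lower, median -0.03), the 17 tested family members and regulators (4 higher, 6 lower, median 0.04) and the 10 DREAM genes (1 higher, 4 lower, median -0.04) lay near the median of all genes, 0.03. In E2G7, the medians were 0.14 for arrest, 0.14 for apoptosis and -0.02 for repair genes. The same medians were 0.08, 0.16 and -0.06 in D2A7 and 0.14, 0.05 and -0.07 in D1E6. In D2A7, 7 of the 10 DREAM genes were lower and 0 higher (median -0.14), where 23.5% of all genes were lower and 28.6% higher. In D1E6, 3 were lower and 1 higher (median 0.00), where 22.5% and 21.4% of all genes were.

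**Figure D4:**
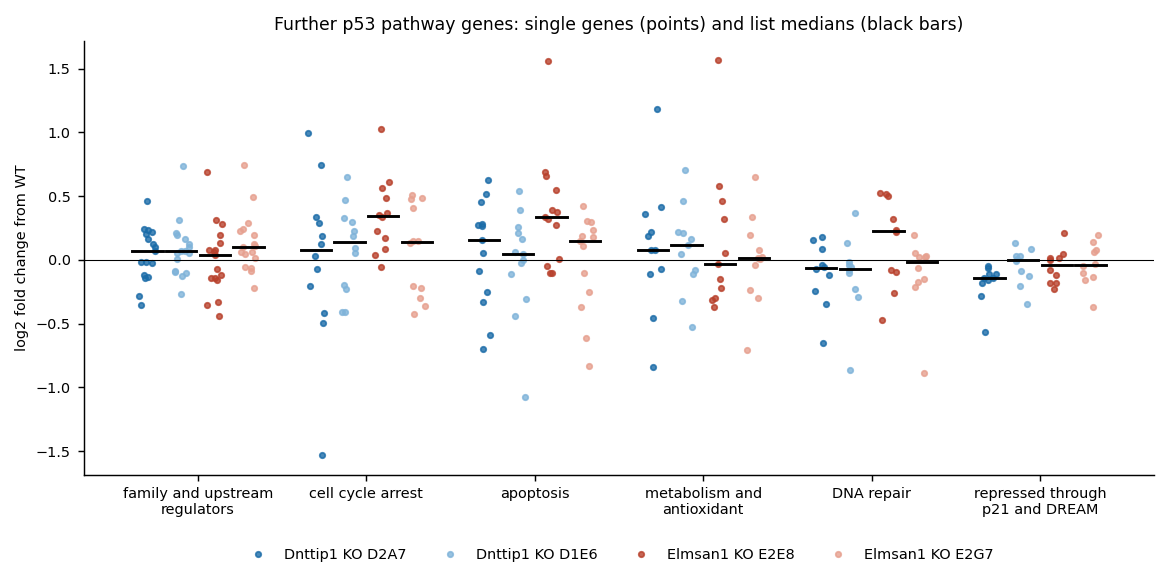
Log2 fold change from WT of the further p53 pathway genes in the 4 KO clones, by list (points are genes, black bars the median of each list). The E2E8 medians of the arrest, apoptosis and repair lists, at 0.34, 0.34 and 0.23, lie above those of the other clones.

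Among the genes of these lists that were called in either knockout, *Btg2*, an antiproliferative target, was at 18.96 and 18.68 in WT, 38.6 and 38.4 in E2E8, and 26.4 in both E2G7 libraries, with 20.0 to 23.2 in *Dnttip1* KO libraries. All 8 KO libraries lay above WT, and the log2 fold change was 0.76 in *Elmsan1* KO (adjusted p = 0.0564) and 0.21 in *Dnttip1* KO mESCs (adjusted p = 0.137). The rule of the study called *Btg2* in *Elmsan1* KO in 10 of 17 alternative settings. Its adjusted p there was under 0.05 in 2 of the 17. *Perp*, which encodes a membrane protein of cell junctions and apoptosis, was at 5.45 and 5.99 in WT, 3.50 and 3.47 in D2A7, 2.41 and 2.94 in D1E6, 5.52 and 5.96 in E2E8, and 3.10 and 3.24 in E2G7. E2E8 lay within WT and the other 3 clones below it, with log2 fold changes of -0.89 in *Dnttip1* KO (adjusted p = 0.0296) and -0.41 in *Elmsan1* KO mESCs (adjusted p = 0.413). In *Dnttip1* KO, *Perp* was called by the rule of the study in 16 of 17 alternative settings. Its adjusted p there was under 0.05 in 10 of the 17.

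*Gdf15*, a secreted stress cytokine, was at 2.56 and 2.51 in WT, 5.78 and 5.96 in D2A7, 4.57 and 3.83 in D1E6, 7.09 and 8.34 in E2E8, and 3.72 and 4.37 in E2G7. All 8 KO libraries lay above WT, by 0.94 on the log2 scale in *Dnttip1* KO (adjusted p = 0.0359) and 1.11 in *Elmsan1* KO mESCs (adjusted p = 0.0864), where it missed the rule of the study but passed it in 3 of 17 alternative settings. In *Dnttip1* KO it passed the rule in 14 of 17 alternative settings, and its adjusted p was under 0.05 in 7 of the 17. *Gdf15* lies on chromosome 8, where the 666 other genes with mean FPKM of 1 or more had medians of 0.37 and 0.36 in these comparisons, and the part of that shift in its change was not tested. *Trp53inp2*, a paralog of *Trp53inp1* in autophagy, was at 2.16 and 1.82 in WT and 0.979 to 1.36 in *Dnttip1* KO libraries (log2 fold change -0.69, adjusted p = 0.0559). It was at 1.11 to 1.601 in *Elmsan1* KO libraries (-0.50, adjusted p = 0.142). *Rrm2b*, the ribonucleotide reductase subunit that p53 induces for repair, was at 6.47 and 6.22 in WT, 5.50 and 5.22 in D2A7, 3.31 and 3.56 in D1E6, 4.63 and 4.46 in E2E8, and 3.52 and 3.27 in E2G7. All 8 KO libraries lay below WT, by -0.68 on the log2 scale in *Elmsan1* KO (adjusted p = 0.0466) and -0.55 in *Dnttip1* KO mESCs (adjusted p = 0.186). In *Elmsan1* KO, *Rrm2b* was called by the rule of the study in 10 of 17 alternative settings. Its adjusted p there was under 0.05 in 5 of the 17.

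The genes most like *Trp53* and *Cdkn1a* were sought among 12215 genes whose mean was 1 FPKM or more, by the root mean square difference of centred log2 levels over the 10 libraries, which shares their lines and depth. For *Trp53*, whose own root mean square variation was 0.180, they were *Akap8* (0.0411), *Cdk12* (0.0471) and *Asxl1* (0.0478). All 3 were lowest in E2E8, where *Akap8* was at 49.5 against 64.1 in WT. For *Cdkn1a*, with a variation of 0.200, they were *Oma1* (0.0478), *Zfyve16* (0.0505) and *Fam35a* (0.0621). All 3 were highest in E2E8, where *Oma1* was at 9.53 against 6.97 in WT. These genes were chosen for levels like those of *Trp53* or *Cdkn1a*, so their place in E2E8 follows from the choice.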

How the data were processed

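The authors prepared stranded total RNA libraries, ran paired-end sequencing, mapped the reads to NCBIM37 and used HT-seq for counts, and their deposited table holds FPKM values per gene and library. Whether the counting used strand, and which of the 3 named instruments ran which library, is not given in the sources used here. For their own tests, the authors used TMM in edgeR 3.16.5 with voom and limma in R 3.3.1. Values times exon length (GENCODE vM1, which holds 97.2% of the genes, although the methods name vM20) were whole multiples of a step for 98.3% to 98.6% of values under 100 steps, within 0.05. This gave the fragments used for depth and for voom. They count fragments, not independent molecules. Counting error was compared with the difference between libraries of a line by a chi-square of each gene (1 degree of freedom), which had a mean of 5.08 to 5.95 and a median of 0.923 to 1.24 in the clones, and a mean of 53.4 and a median of 1.31 in WT.

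Libraries were grouped by genotype and clone as labelled. Sample labels and design text number the *Dnttip1* KO clones in opposite order, so clone codes are used. Each library was divided by its median ratio to the geometric mean over 11270 genes with at least 1 FPKM in all 10. A gene was tested where 2 or more of the compared libraries reached 0.1 FPKM. The values log2(normalised FPKM + 0.1) entered limma 3.58.1 (R 4.3.3) with a trend of the variance. Knockout comparisons used the libraries of both genotypes only (4 against 2, or 4 against 4). Clone differences stay in the spread only in part, since libraries of a clone are counted as independent. Line comparisons (2 against 2) used a fit over all 10 libraries with 5 lines. Nothing in the labels says that libraries of a line are separate cultures, so their p-values measure the spread between libraries, which may be technical. The labels name no batch or pairing behind the replicate numbers. Deviations of same-numbered libraries had correlations from -0.139 to 0.192 between lines, and whether some lines shared a batch was not tested.

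The 10 genes, the lists and the tests were chosen with earlier results of these data known, and the threshold of 0.05 on the adjusted p at any fold was chosen after seeing the data. Named list genes are up to 3 a list, called in either knockout, those of the largest change whose mean reached 1 FPKM. Alternatives were a pseudocount of 1 or 0.01, a minimum mean of 1 FPKM, no filter, FPKM as deposited, quantile normalization, no trend, voom, a replicate block, correlation within clones, all 10 libraries in a single fit, an adjusted p, and each library left out. The fits were tested on simulated data that held the spread between libraries of a line but no differences between clones. That test cannot show how clone differences act on the pooled fits. Python 3.11.15, numpy 2.4.6 and matplotlib 3.10.9 were used for searches and figures.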

Additional observations from a re-analysis of the deposited data

Results flagged for a closer look

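The change from WT differed between the clones of a knockout, by the direct test of clone against clone at an adjusted p under 0.05, for 14 gene and knockout pairs. These were 6 of the 10 genes between the *Dnttip1* KO clones, beside 46.0% of all genes tested. Between the *Elmsan1* KO clones they were 8 of the 10, beside 50.7%. Between the *Dnttip1* KO clones, the log2 difference of D2A7 from D1E6 was -0.26 for *Bax*, -0.14 for *Ccng1*, 0.13 for *Cdkn1a*, -0.16 for *Phlda3*, -0.21 for *Trp53inp1* and -0.53 for *Zmat3*. Between the *Elmsan1* KO clones, that of E2E8 from E2G7 was 0.57 for *Bbc3*, 0.38 for *Ccng1*, 0.37 for *Cdkn1a*, 0.17 for *Mdm2*, 0.39 for *Phlda3*, -0.48 for *Trp53*, 0.27 for *Trp53inp1* and 0.33 for *Zmat3*. For *Ccng1*, the *Elmsan1* KO clones changed from WT in opposite directions, each past the threshold. With 1 clone at each of these levels, clone and knockout cannot be told apart.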

How the results depend on the processing

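Of 1300 values of single genes of the 10 under alternative settings, 1230 kept their direction and their side of an adjusted p of 0.05, 33 lost and 6 gained that threshold, and 31 changed sign. With quantile normalization, the changed signs (log2 scale) were *Cdkn1a* in *Dnttip1* KO (-0.013), *Phlda3* in D2A7 (-0.013), *Bbc3* in D1E6 (-0.012) and *Bax* between the *Elmsan1* KO clones (0.041), and with FPKM as deposited *Mdm2* in D1E6 (0.025) and *Trp53inp1* in E2G7 (0.0085). With single libraries left out, *Cdkn1a* (-0.025 to 0.037) and *Bbc3* (-0.19 to 0.040) spanned 0 in *Dnttip1* KO, as did *Ccng1* (-0.055 to 0.088) and *Bax* (-0.0099 to 0.090) in *Elmsan1* KO. So did *Trp53* (-0.041 to 0.14) and *Phlda3* (-0.047 to 0.077) in D2A7, *Mdm2* (-0.042 to 0.028) and *Bbc3* (-0.11 to 0.12) in D1E6, and *Bax* in E2E8 (-0.015 to 0.085). In E2G7, *Mdm2* (-0.0062 to 0.063), *Trp53inp1* (-0.046 to 0.026), *Bbc3* (-0.091 to 0.17) and *Bax* (-0.0045 to 0.096) spanned 0, as did *Trp53* (-0.11 to 0.062) and *Sesn2* (-0.046 to 0.077) between the *Dnttip1* KO clones and *Bax* between the *Elmsan1* KO clones (-0.031 to 0.0096). None of these had passed the threshold with all libraries.

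The labels name no batch behind the replicate numbers, so the block shows only how a number as a term moves the counts. With the replicate block, the 1 call of *Ccng1* in *Dnttip1* KO at an adjusted p under 0.05 became 0 (adjusted p = 0.0663), the pathway genes called became 2 of 4 in *Dnttip1* KO and 0 of 2 in *Elmsan1* KO, and *Sesn2* in E2G7 and *Phlda3* between the *Dnttip1* KO clones lost their calls.

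The *Ccng1* call also became 0 with the correlation within clones and with all 10 libraries in a single fit, and was 0 to 1 with a library left out. The 4 pathway genes called in *Dnttip1* KO were 2 with an adjusted p, a pseudocount of 1, quantile normalization, the correlation within clones or all 10 libraries in a single fit, and 0 to 4 with a library left out. The 2 in *Elmsan1* KO were 1 with an adjusted p, a pseudocount of 1, no trend, voom or the correlation within clones, and 0 to 2 with a library left out. The call of *Zmat3* in D2A7 became 0 with a pseudocount of 1, and the 2 calls in E2E8 became 1 with a pseudocount of 1 or quantile normalization and 1 to 2 with a library left out. The 3 adjusted calls in D1E6 became 1 without the trend and 1 to 3 with a library left out, and the 4 in E2G7 became 2 to 4. Between the *Dnttip1* KO clones 1 of 10 was called with quantile normalization. With a library left out, 0 to 1 were called between the knockouts and between the *Elmsan1* KO clones. The cause of these changes was not tested. Genes called by the study's rule numbered 538 with the correlation within clones against 1134 in *Dnttip1* KO, 486 against 1105 in *Elmsan1* KO and 54 against 268 between the knockouts.

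With 2 clones a knockout, effects of a clone and of its knockout are hard to separate. A lone library left in a line was assumed to vary like the others. *Bbc3*, whose lowest value rests on 478 fragments, had the widest difference between libraries of a line, 0.26 on the log2 scale, and the part of depth in it was not tested.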

Other observations

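Some p53 pathway genes outside the 10 differed far more between clones than the 10 did, of which 3 are given, chosen after their values were seen. *Gadd45a*, which acts in growth arrest and DNA damage, was at 12.2 and 13.8 normalised FPKM in WT, 4.43 and 4.44 in D2A7, 13.6 and 13.4 in D1E6, 15.7 and 14.8 in E2E8, and 10.1 and 10.0 in E2G7. D2A7 lay far below every other line (log2 fold change from WT -1.53, adjusted p = 1.57e-06). *Plk2*, a polo-like kinase, was at 9.37 and 9.18 in WT, 18.7 and 18.5 in D2A7, 8.004 and 8.163 in D1E6, 12.2 and 11.9 in E2E8, and 10.3 and 10.1 in E2G7. D2A7 lay above every other line (1.00, adjusted p = 8.69e-07). *Ddit4*, which restrains mTORC1, was at 16.2 and 15.1 in WT, 23.0 and 21.9 in D2A7, 17.2 and 15.2 in D1E6, 47.3 and 45.1 in E2E8, and 18.8 and 19.8 in E2G7. E2E8 lay above every other line (1.56, adjusted p = 2.10e-06).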
